A study of Rattus norvegicus with 14 samples.

Results

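The genes described here make or hold the lipids of the sebaceous gland, and were followed in skin of male CD hairless rats exposed to a 94 GHz electromagnetic field. The set was named gene by gene as Scd, Fads2, Elovl3, Far2, Awat1, Awat2, Dgat2, Soat1, Plin2 and Mgst1, 10 genes in all. Array probes were assigned to them when the probe's transcript accession mapped to that symbol in rat RefSeq. Of the 10 genes, 9 had a matched probe and 9 passed the filter on dim probes, among 18611 genes tested on the arrays. No probe was matched to Far2, the reductase that makes fatty alcohols from fatty acyl-CoA, so it has no value here. The exposed group was 6 males treated for 3 h per day on 3 days per week over 5.5 months. The sham group was 8 males handled as unexposed animals. All animals were of the CD hairless strain, were housed in pairs, and the labels name no other treatment. Each animal gave 1 skin sample of 15 to 20 mg, measured on 1 one-colour Agilent array from 0.1 µg of total RNA. Cage mates are not identified in the sources used here, so every p-value below treats the animals as independent.

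Sebaceous glands open into the hair follicle. Their cells, the sebocytes, fill with lipid droplets and then break down whole, which releases the lipid as sebum onto the skin. Sebum contains triglycerides, wax esters and cholesteryl esters, and the genes of the set act at successive steps towards them. Desaturases and elongases shape the fatty acids, a reductase turns part of them into fatty alcohols, acyltransferases join the pieces into neutral lipids, and a coat protein covers the droplets. Several of these genes, among them Scd, Dgat2 and Plin2, also work in fat cells, and skin RNA holds both sources. In a bulk sample, fewer sebocytes and less RNA per sebocyte cannot be told apart.

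The promoters of Awat2 and Soat1 are shown because these genes moved together across animals (below), and that of Awat1 because it encodes the second wax synthase beside Awat2. Each runs from 250 bases before the annotated gene start to 50 bases after it, 5′ to 3′ on the gene's strand, from RefSeq on assembly GRCr8. Awat2 lies at chrX:69530615-69530914 on the minus strand, Soat1 at chr13:71147623-71147922 on the minus strand and Awat1 at chrX:69708036-69708335 on the plus strand. Capitals mark CCAAT and GGGCGG, read on either strand.
Awat2: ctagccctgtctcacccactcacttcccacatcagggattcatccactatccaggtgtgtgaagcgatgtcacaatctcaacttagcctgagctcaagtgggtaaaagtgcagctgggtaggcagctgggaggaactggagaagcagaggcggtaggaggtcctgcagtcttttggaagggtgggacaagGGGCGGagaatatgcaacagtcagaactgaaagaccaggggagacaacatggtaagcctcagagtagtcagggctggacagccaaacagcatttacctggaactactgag
Soat1: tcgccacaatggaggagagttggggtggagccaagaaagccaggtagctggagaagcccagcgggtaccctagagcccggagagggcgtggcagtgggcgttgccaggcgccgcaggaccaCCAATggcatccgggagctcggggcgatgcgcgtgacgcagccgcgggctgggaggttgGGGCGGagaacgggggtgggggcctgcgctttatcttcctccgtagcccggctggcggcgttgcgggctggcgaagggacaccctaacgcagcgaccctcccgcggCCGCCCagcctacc
Awat1: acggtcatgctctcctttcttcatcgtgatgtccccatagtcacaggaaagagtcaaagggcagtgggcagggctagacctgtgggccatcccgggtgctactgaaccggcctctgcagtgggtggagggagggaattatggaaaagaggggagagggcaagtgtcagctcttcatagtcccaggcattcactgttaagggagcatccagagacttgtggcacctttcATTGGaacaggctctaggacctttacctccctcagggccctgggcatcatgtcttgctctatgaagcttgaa

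The Awat2 promoter held 1 GGGCGG, at bases -60 to -55 from the start, and no CCAAT. The Soat1 promoter held 1 CCAAT at -129 to -125 and 2 GGGCGG, at -70 to -65 on the gene's strand and at 36 to 41 on the opposite strand. The Awat1 promoter held 1 CCAAT on the opposite strand at -22 to -18 and no GGGCGG. RefSeq gave 10 promoters for 9 of the 10 genes. Of these 10, 4 held CCAAT, which 37.5% of 33469 rat promoters of the same length also hold, and 7 held GGGCGG, which 33.1% hold. TCACNCCAC, found in 1.12% of all promoters, was searched on both strands and matched none of the 10. Direct repeats of AGGTCA, which is the half-site of many nuclear receptors, were searched in the same way with a spacer of 1 base, found in 0.0538% of all promoters, and of 4 bases, found in 0.00598%, and matched none of the 10. The repeats share their half-site. These are letter matches in a fixed window.

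Values below are log2 signals relative to the 75th percentile of the same array. They were compared between animals for 1 probe at a time, and the level of one gene's probe is not set against another's. Array signal, taken as the 75th percentile, ran between 804.5 and 1967 scanner units. The lowest array was that of sham animal 6. This array also had the lowest weight when limma estimated array quality (0.127), and for several of the genes it lay far from the other sham arrays. Several results that rest on it are given with and without it. Exposed animal 3 had the next lowest array signal (1075 scanner units) and the next lowest array weight (0.401). Probes of 8 of the 9 measured genes were well above background on all 14 arrays. The Fads2 probe cleared that limit on 3 of the 6 exposed arrays and 8 of the 8 sham arrays, at 19.4 to 48.2 scanner units. No spot was flagged as saturated.

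No difference between exposed and sham skin passed the test for any of the 9 measured genes. In limma, with Benjamini-Hochberg adjustment over all 18611 genes, the adjusted p was 0.9996 for each of them, and 0 of 9 reached an unadjusted p below 0.05. Across the array, 0% of genes passed the adjusted threshold and 3.42% the unadjusted threshold. The ranges of exposed and sham animals overlapped for all 9 genes, and on the whole array they were separate for 0.0322%. Of the 9 genes, 4 were higher on average in exposed animals (Scd, Fads2, Elovl3 and Mgst1) and 5 lower, with a median difference of -0.03, beside -0.02 over all genes and 43% of all genes higher. Averaged over the 9 genes, each centred on its mean over the 14 animals, the level was 0.0013 in exposed and -0.001 in sham animals.

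**Figure D1:**
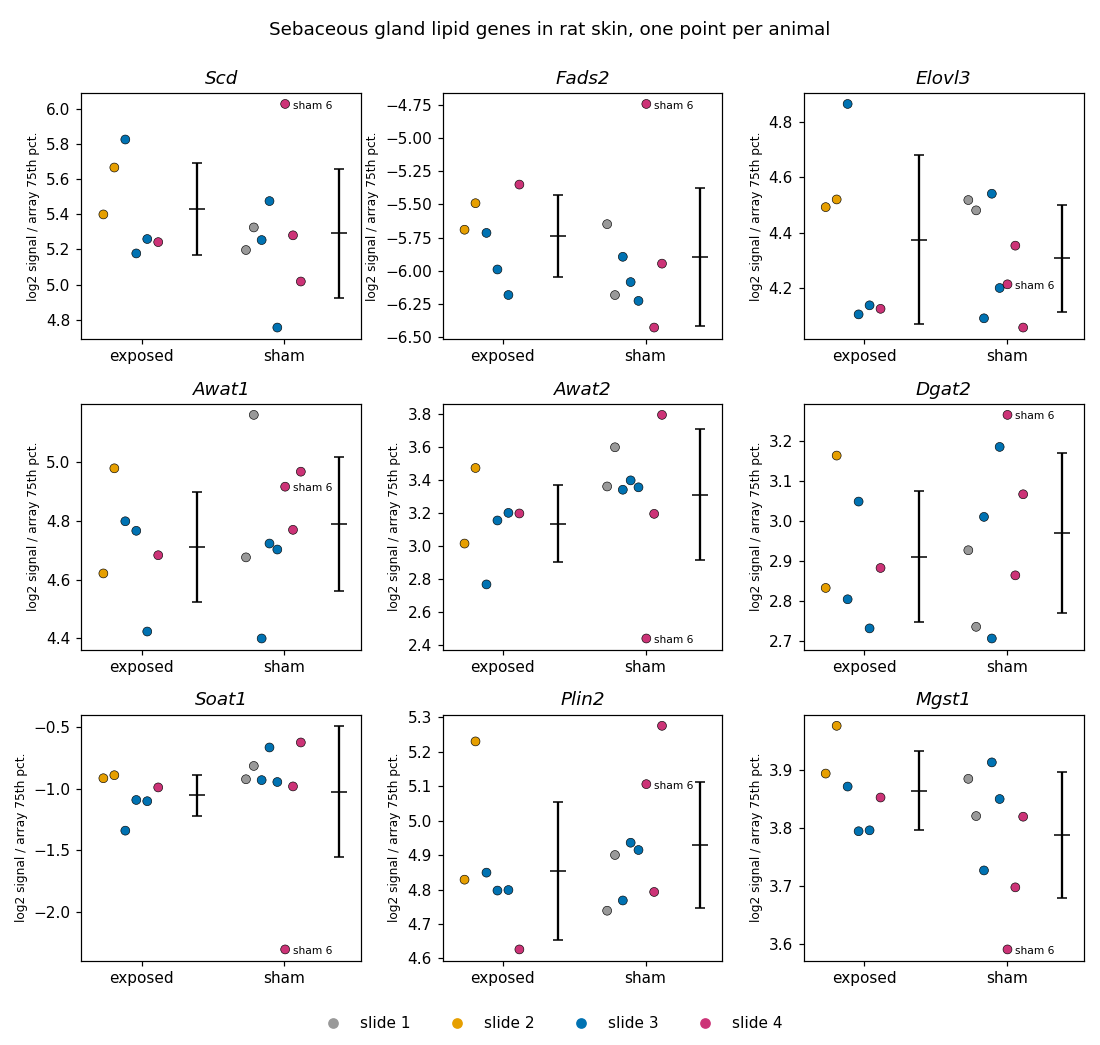
Log2 signal of the 9 measured genes relative to the array's 75th percentile (y axis) in exposed and sham animals, 1 point per animal coloured by slide, with bars for the group mean ± SD (n = 6 exposed, 8 sham). The groups overlap in every panel, and sham animal 6 is the lowest point for Awat2, Soat1 and Mgst1 and the highest for Scd, Fads2 and Dgat2.

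Scd (NCBI gene 246074, chromosome 1) encodes stearoyl-CoA desaturase, which puts the first double bond into saturated fatty acids. Mice that lack its homologue Scd1 have wasted sebaceous glands. In exposed animals Scd ran between 5.18 and 5.82 with a median of 5.33, against 4.76 to 6.03 with a median of 5.27 in sham animals. The sham animals held both the lowest value, in animal 5, and the highest, in animal 6. Before scaling, sham animal 6 read 52400 scanner units, inside the range of 42800 to 78800 over the 14 arrays. The means were 5.43 ± 0.26 in exposed and 5.29 ± 0.37 in sham animals (SD, n = 6 and 8), a difference of 0.14 with an SE of 0.17. The 95% interval, -0.22 to 0.50, reaches from 0.857- to 1.41-fold.

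Fads2 (NCBI gene 83512, chromosome 1) encodes the delta-6 desaturase, which in human sebocytes makes sapienic acid. Its probe was close to background, so its values carry little weight. It read -6.18 to -5.35 with a median of -5.70 in exposed animals, against -6.43 to -4.74 with a median of -6.01 in sham animals. The highest value came from sham animal 6. The difference of 0.16 (SE 0.22, 95% interval -0.32 to 0.64) was smaller than the SD of either group, 0.31 in exposed and 0.52 in sham animals. With normexp background correction it was 0.036.

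Elovl3 (NCBI gene 309449, chromosome 1) encodes an elongase of saturated and monounsaturated very long chain fatty acids, and mice without it have altered sebum and sparse hair. It ran between 4.10 and 4.87 with a median of 4.31 in exposed animals, and between 4.06 and 4.54 with a median of 4.28 in sham animals. The 6 exposed values fell into 3 near 4.1, 2 near 4.5 and exposed animal 3 at 4.87, the highest of all 14. The means were 4.37 ± 0.31 in exposed and 4.31 ± 0.19 in sham animals (SD, n = 6 and 8), a difference of 0.07 (SE 0.13, 95% interval -0.21 to 0.34). Without exposed animal 3 it was -0.0309.

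Awat1 and Awat2 encode the wax synthases, which join a fatty alcohol to an acyl-CoA, and both genes lie on chromosome X. Awat1 (NCBI gene 679520) had a median of 4.72 in exposed animals, with a range of 4.42 to 4.98, and of 4.75 in sham animals, with a range of 4.40 to 5.16. The ranges nearly coincided. The difference was -0.08 (SE 0.11, 95% interval -0.32 to 0.16). A second, dimmer Awat1 probe gave a difference of -0.07, and across the 14 animals the probes correlated at r = 0.766 (permutation p = 0.00131) and rho = 0.574 (permutation p = 0.0354). Without the 2 animals farthest from the median that r was 0.567.

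Awat2 (NCBI gene 302425) had the largest difference in the negative direction among the 9 genes. It ran between 2.77 and 3.47 with a median of 3.18 in exposed animals, against 2.44 to 3.79 with a median of 3.36 in sham animals. The lowest value was that of sham animal 6, and without it the sham range was 3.19 to 3.79. The means were 3.13 ± 0.23 in exposed and 3.31 ± 0.40 in sham animals (SD, n = 6 and 8). The difference was -0.18 (SE 0.17, 95% interval -0.54 to 0.19, 0.886-fold).

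Dgat2 (NCBI gene 252900, chromosome 1) encodes the enzyme of the last step of triglyceride synthesis. It ran between 2.73 and 3.16 with a median of 2.86 in exposed animals and between 2.71 and 3.26 with a median of 2.97 in sham animals. The difference was -0.06 (SE 0.10, 95% interval -0.28 to 0.16).

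Soat1 (NCBI gene 81782, chromosome 13) encodes sterol O-acyltransferase 1, which esterifies cholesterol for storage. It ran between -1.34 and -0.89 with a median of -1.04 in exposed animals, against -2.31 to -0.62 with a median of -0.92 in sham animals. Sham animal 6 lay at -2.31 while the other 7 sham animals lay between -0.98 and -0.62. The means were -1.05 ± 0.17 in exposed and -1.02 ± 0.54 in sham animals (SD, n = 6 and 8), and without sham animal 6 the sham mean was -0.84 ± 0.14. The difference was -0.03 (SE 0.21, 95% interval -0.49 to 0.43).

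Plin2 (NCBI gene 298199, chromosome 5) encodes perilipin 2, which coats lipid droplets. It ran between 4.63 and 5.23 with a median of 4.81 in exposed animals, and between 4.74 and 5.27 with a median of 4.91 in sham animals. Exposed animal 2 stood at 5.23, apart from the other 5 exposed animals, which lay at 4.85 or lower. The difference was -0.07 (SE 0.10, 95% interval -0.30 to 0.15).

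Mgst1 (NCBI gene 171341, chromosome 4) encodes a membrane-bound glutathione transferase that is abundant in sebocytes. It was the steadiest of the 9 genes, at 3.79 to 3.98 with a median of 3.86 in exposed animals and 3.59 to 3.91 with a median of 3.82 in sham animals. The difference was 0.08 (SE 0.06, 95% interval -0.06 to 0.21). Its 14-animal SD was 0.10 on the log2 scale, and 5.24% of all genes had a smaller SD. Fads2 and Soat1 had the largest SDs of the set, 0.43 and 0.41, above 84.3% and 81.3% of all genes. The other genes lay between 32% (Dgat2) and 71% (Awat2).

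Sham animal 6 was the lowest or highest sham animal for 6 of the 9 genes. Compared with the mean of the other 7 sham animals it deviated by -1.47 for Soat1, -0.99 for Awat2 and -0.23 for Mgst1, and by 1.31 for Fads2 and 0.84 for Scd. With quantile normalization in place of the 75th percentile, the deviations stayed at -1.31 for Soat1, -1.15 for Awat2 and 1.43 for Fads2, but that of Scd was 0.07. Those of Mgst1 and Elovl3 were -0.52 and -0.53, beside -0.23 and -0.11 with the 75th percentile, and the sign turned for Awat1 (-0.43, beside 0.14) and Plin2 (-0.41, beside 0.20). The score of adipocyte markers (mean of 14 centred log2 values) was lowest in the same animal, which deviated from the other sham animals by -1.02. Its hair follicle and skeletal muscle scores deviated by -0.85 and -0.63, though other animals were lower still. Its epidermal and dermal fibroblast scores deviated by -0.15 and -0.04, or by -0.76 and -0.46 with quantile normalization. The part of array signal and of tissue content in these deviations was not tested.

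Without sham animal 6, the differences of Awat2, Soat1 and Fads2 reached an unadjusted p below 0.05 in limma, which is 3 of 9 genes, beside 8.32% of all genes in the same fit. Awat2 then differed by -0.30 (95% interval -0.55 to -0.05, adjusted p = 0.5438 in limma). Soat1 differed by -0.21 (95% interval -0.40 to -0.03, adjusted p = 0.5665 in limma). Fads2, with a probe close to background, differed by 0.32 (95% interval 0.00 to 0.64, adjusted p = 0.5916 in limma). The difference of Scd was 0.24 without that animal (limma adjusted p = 0.6229). None of the 9 passed the adjusted threshold, nor did any other gene, and the ranges of exposed and sham animals still overlapped for all 9. Exposed animal 3 was the lowest exposed animal for Awat2 and Soat1. With sham animal 6 kept and exposed animal 3 left out, the differences were -0.102 for Awat2, 0.0263 for Soat1, 0.153 for Fads2 and 0.0571 for Scd.

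The slide of each array was read from the first number of the code in its sample title, which the titles do not name as a slide. This gave 4 slides. Slides 1 and 2 held 1 group each. Slide 3 held 3 exposed and 3 sham arrays, and slide 4 held 1 exposed and 3 sham arrays. A limma F test of slide gave an adjusted p of 0.9998 for each of the 9 genes, and 0% of all genes passed. At an unadjusted p below 0.05 there were 0 of the 9, beside 2.7% of all genes. On slide 3 the groups did not overlap for 2 of the 9 genes, beside 6.78% of all genes. Awat2 averaged 3.04 in the 3 exposed animals (2.77 to 3.20) and 3.36 in the 3 sham animals (3.34 to 3.40), a difference of -0.32. Soat1 averaged -1.18 in the exposed animals (-1.34 to -1.09) and -0.84 in the sham animals (-0.94 to -0.66), a difference of -0.33. Both had an adjusted p of 0.9989 in limma, and Soat1 alone of the 9 had an unadjusted p below 0.05 there, beside 2.77% of all genes. On slide 4, which holds sham animal 6, the direction was the opposite, at 0.05 for Awat2 and 0.31 for Soat1, with a single exposed array. The groups did not overlap there for 3 of the 9 genes (Mgst1, Awat1 and Plin2), beside 46% of all genes, and 0 of the 9 reached an unadjusted p below 0.05, beside 1.58%. The difference of Scd was 0.26 on slide 3, against -0.20 on slide 4, and that of Plin2 was -0.06 and -0.43. With slide as a fixed block, the difference was -0.20 for Awat2, -0.12 for Soat1 and 0.11 for Scd, and no gene of the set passed.

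**Figure D2:**
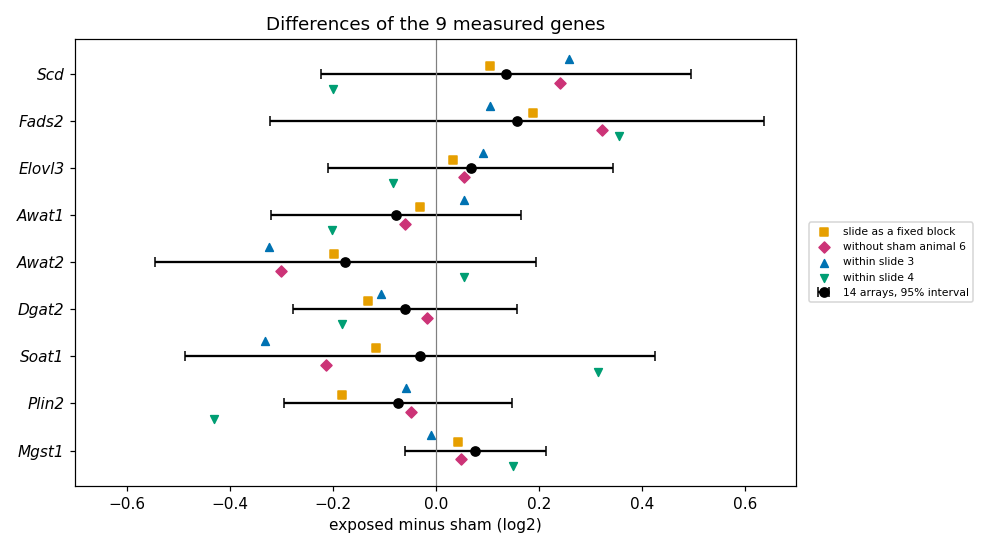
Exposed minus sham difference in log2 signal (x axis) for the 9 measured genes (rows). Black points and bars are the estimate and 95% interval over 14 arrays, and coloured marks are the estimates with slide as a fixed block, without sham animal 6, and within slides 3 and 4. Every black interval spans 0, and the marks of slide 3 and slide 4 lie on opposite sides of 0 for Scd, Elovl3, Awat1, Awat2, Soat1 and Mgst1.

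Next, the genes were compared with each other across the 14 animals. The 36 pairs had a median Pearson r of 0.06, with 23 positive, and ran between -0.684 and 0.882. Only Awat2 with Soat1 passed the adjustment over 90 relations (36 pairs of genes and 54 of a gene with a tissue score or with array signal), at r = 0.882 (permutation test, adjusted p = 0.0018, unadjusted 2e-05) and rho = 0.829 (adjusted p = 0.0387). Sham animal 6 was lowest and sham animal 8 highest in both genes. Without sham animal 6 the pair kept r = 0.847 with an adjusted permutation p of 0.0576. Without sham animals 6 and 8, the 2 farthest from the median of Awat2, r was 0.786 (permutation p = 0.00428, adjusted 0.193). The pair did not pass the threshold without these animals, and their influence was not separated from that of having fewer animals. After slide means were removed r was 0.90 (animals permuted within slides, adjusted permutation p = 0.0162), and within the 6 animals of slide 3 it was 0.898. With quantile normalization r was 0.892, and 0.816 when sham animal 6 was also left out. The share of all gene pairs on these arrays with an r this high was not computed. Genes outside the set were closer to each of the pair over the 14 animals, at r = 0.926 for Awat2 with Cers5 and 0.965 for Soat1 with Atg101.

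**Figure D3:**
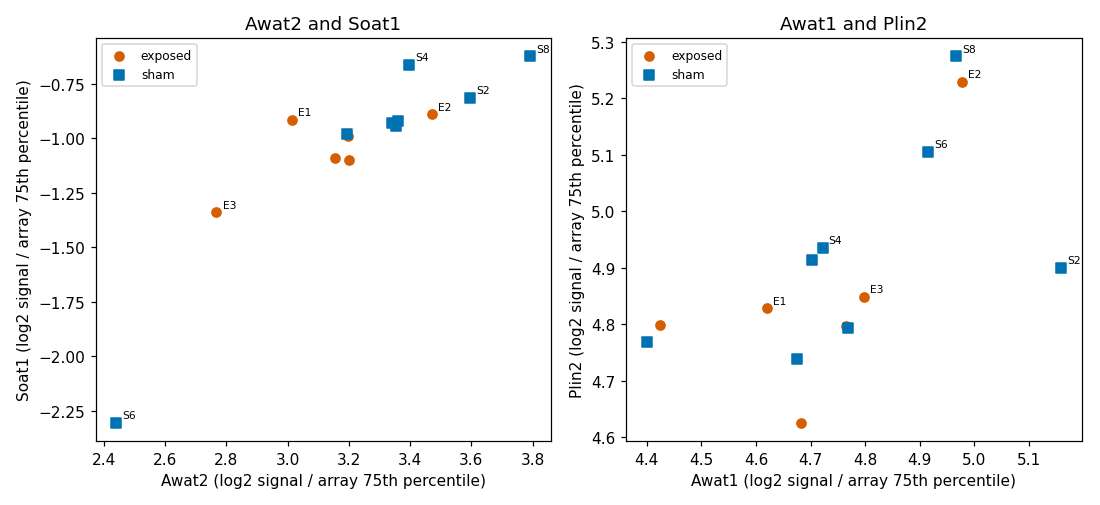
Log2 signal relative to the array's 75th percentile of Awat2 (x axis) against Soat1 (y axis) on the left, and of Awat1 against Plin2 on the right, 1 point per animal (circles exposed, squares sham). Labels name some animals (E exposed, S sham, with the animal's number). Sham animal 6 is the lowest in the left panel, and the other 13 animals form a rising band there.

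No other pair passed with the 75th percentile scaling, and several depended on the scaling. Awat1, the second wax synthase, had r = 0.17 with Awat2, and 0.447 without sham animal 6. After quantile normalization that pair had r = 0.706 (adjusted permutation p = 0.0492), and 0.649 without sham animal 6. Scd and Awat2 ran in opposite directions at r = -0.67 (adjusted permutation p = 0.158), but at -0.112 after quantile normalization. Scd and Elovl3 had r = 0.503, and 0.751 without sham animal 6 (adjusted permutation p = 0.118). Awat1 and Plin2 had r = 0.603 (permutation p = 0.0224, adjusted 0.176), which passed after quantile normalization at r = 0.703 (adjusted permutation p = 0.045). Without sham animals 2 and 3, the 2 farthest from the median of Awat1, it was 0.752. With quantile normalization 7 pairs of genes passed in place of 1. Besides the pairs named so far they were Awat2 with Plin2 (r = 0.833, against 0.20 with the 75th percentile scaling), Elovl3 with Dgat2 (-0.826, against -0.401), Mgst1 with Awat2 (0.789, against 0.472) and Mgst1 with Soat1 (0.880, against 0.657). When sham animal 6 was also left out, the quantile values were 0.817 for Awat2 with Plin2, -0.871 for Elovl3 with Dgat2, 0.491 for Mgst1 with Awat2 and 0.424 for Mgst1 with Soat1. With quantile normalization the median r of the 36 pairs was 0.15, beside 0.13 when sham animal 6 was also left out.

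**Figure D4:**
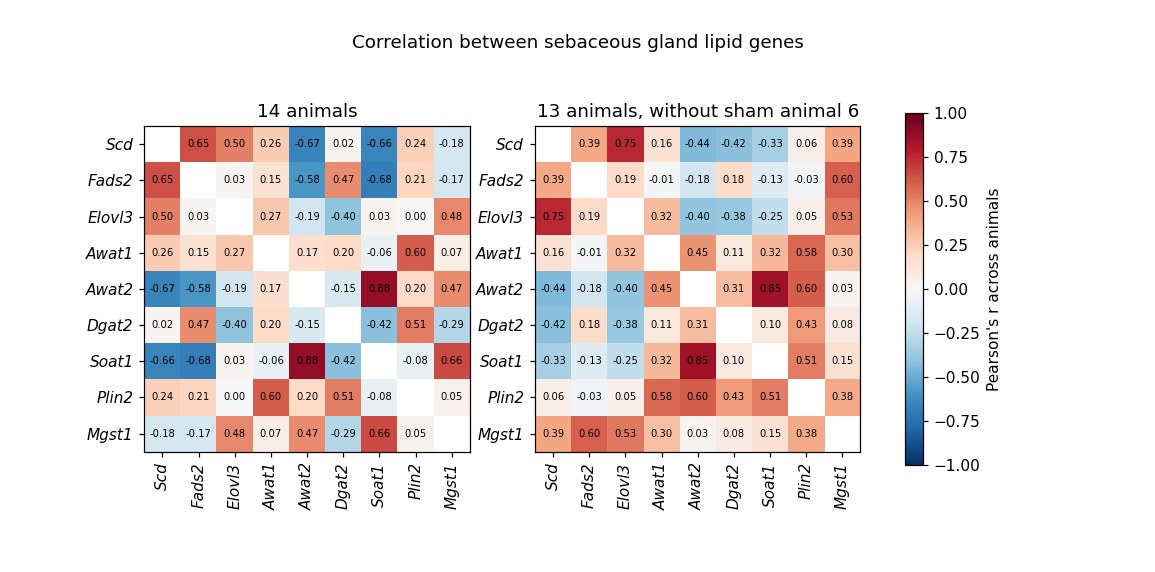
Pearson's r across animals (colour scale and printed values) for each pair of the 9 measured genes, in all 14 animals on the left and in the 13 animals without sham animal 6 on the right. Awat2 with Soat1 stays at 0.85 on the right, while the negative values of Scd and Fads2 with Awat2 and Soat1 move towards 0.

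With the 75th percentile scaling, none of the 54 relations with tissue scores or array signal passed the adjustment, and 5 had an unadjusted p below 0.05. The scores were means over markers of fat, skeletal muscle, hair follicle, epidermis and dermal fibroblasts. The strongest was that of Awat2 with array signal, at r = 0.78 (permutation, adjusted p = 0.0724) and rho = 0.499, with r = 0.566 without sham animal 6. With quantile normalization it passed, at r = 0.848 (adjusted permutation p = 0.0103), and r was 0.685 when sham animal 6 was also left out. Soat1 with array signal had r = 0.766 and rho = 0.235, with r = 0.365 without sham animal 6 and 0.752 with quantile normalization. Scd with array signal had r = -0.734 (adjusted permutation p = 0.0984), and -0.0672 with quantile normalization. The other 4 relations that passed with quantile normalization were those of Fads2 (r = -0.866), Soat1 (0.832) and Awat2 (0.788) with the epidermal score and of Mgst1 with array signal (0.796). With the 75th percentile scaling these had r = -0.28, 0.241, 0.187 and 0.269. With quantile normalization and without sham animal 6, they had r = -0.6712, 0.4575, 0.5269 and 0.4725. The part of array signal in the Awat2 and Soat1 relation was not tested.

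The marker scores themselves varied in both groups. Over all genes, 43% were higher on average in exposed skin. Markers of 1 tissue were read in the same biopsies, so the counts below are not counts of independent genes. The skeletal muscle score ran between -1.90 and 4.93 in exposed and between -2.59 and 3.53 in sham animals, and the 11 measured muscle genes were all higher on average in exposed skin, with a median difference of 1.36. The 15 measured hair follicle genes had a median difference of 0.73, with 14 higher in exposed skin. The adipocyte score ran between -0.53 and 0.58 in exposed and between -0.98 and 0.23 in sham animals, and 12 of 14 markers were higher in exposed skin, with a median of 0.19. The epidermal score ran between -0.24 and 0.08 in exposed and between -0.19 and 0.19 in sham animals, and the 7 measured genes were all lower, with a median of -0.08. The dermal fibroblast score ran between -0.83 and 0.23 in exposed and between -0.27 and 0.34 in sham animals, with a median of -0.14 over 8 genes. No gene of these 5 lists passed the adjusted threshold. The part of tissue composition in the differences of the 9 genes was not tested beyond a fit with the fat and muscle scores as covariates, in which none passed (adjusted p 0.8787 to 0.9827 in limma). In that fit the difference was 0.242 for Scd, -0.28 for Awat2, 0.307 for Fads2 and -0.145 for Soat1. Each was farther from 0 than without the covariates by over 1.5 times. It was 0.0493 for Mgst1, 0.0538 for Elovl3, -0.0712 for Awat1, -0.0729 for Plin2 and -0.0711 for Dgat2. Without the covariates these were 0.0762, 0.0675, -0.0772, -0.074 and -0.0593. The adipocyte score was lowest in sham animal 6. Without that animal and without covariates the differences were 0.241 for Scd, -0.3 for Awat2, 0.322 for Fads2 and -0.214 for Soat1. The part of that animal in the covariate fit was not tested.

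Other genes of sebum and fatty acid synthesis and their relatives in lipid handling, none of them in the set, were compared in the same fit. Of 40 genes listed, 35 were measured, 16 were higher and 19 lower in exposed skin, 0 passed the adjusted threshold and 1 the unadjusted threshold, beside 3.42% of all genes past the unadjusted threshold and 43% higher. The median difference was -0.04 (range -0.26 to 0.39). Of the genes listed, 5 were also among the adipocyte markers, including the gene at the top of this range. The 3 of smallest p were Acot2, Elovl6 and Fasn. Acot2, a mitochondrial acyl-CoA thioesterase, averaged -0.51 ± 0.15 in exposed and -0.35 ± 0.07 in sham animals (SD, n = 6 and 8). That is a difference of -0.17 (95% interval -0.32 to -0.02, adjusted p = 0.9996 in limma). Elovl6, the elongase that makes stearate from palmitate, averaged 3.104 ± 0.303 in exposed and 3.36 ± 0.30 in sham animals (difference -0.26, 95% interval -0.59 to 0.07). Fasn, the fatty acid synthase, averaged 5.074 ± 0.204 in exposed and 5.203 ± 0.144 in sham animals (difference -0.13, 95% interval -0.33 to 0.08).

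Genes that mark or regulate sebocytes were measured for 15 of 26 listed, and 2 of them were shared with the synthesis list. Of the 15, 5 were higher and 10 lower in exposed skin, 0 passed the adjusted threshold and 2 the unadjusted threshold, beside the same 3.42% and 43% of all genes. The median difference was -0.05 (range -0.38 to 0.09). Mc5r, the melanocortin receptor of exocrine glands, whose loss in mice reduces sebum, averaged -1.54 ± 0.37 in exposed and -1.16 ± 0.25 in sham animals (SD, n = 6 and 8). The difference was -0.38 (95% interval -0.72 to -0.04, adjusted p = 0.9996 in limma). Aldh3a1, an aldehyde dehydrogenase, averaged 1.93 ± 0.16 in exposed and 2.21 ± 0.28 in sham animals (difference -0.28, 95% interval -0.55 to -0.01, adjusted p = 0.9996 in limma). Rxra, the common partner of many nuclear receptors, differed by -0.12 (95% interval -0.28 to 0.04).

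Among all other genes with a symbol, those most alike to each gene over the 14 animals were also looked up, by Pearson's r and as a description. Awat2 was most like Cers5, a ceramide synthase (r = 0.926, and 0.858 without sham animal 6), and then Clpx (r = 0.898, and 0.802 without it). Soat1 was most like Atg101 (r = 0.965, and 0.797 without sham animal 6) and Atp5f1b (r = 0.962, and 0.780 without it). Elovl3 was most like Ebp, an enzyme of cholesterol synthesis (r = 0.913, and 0.933 without sham animal 6), and then Aadacl2fm3 (r = 0.898). Dgat2 was most like Fxyd1 (r = 0.964, and 0.956 without sham animal 6) and Fam110a (r = 0.943). Plin2 was most like Elovl6 (r = 0.883, and 0.871 without sham animal 6) and Adtrp (r = 0.852). Scd was most like Ccdc89 (r = 0.860) and Tecpr1 (r = 0.853), and Mgst1 like Emc4 (r = 0.852) and Spint2 (r = 0.844). Without sham animal 6 these were 0.803 and 0.758 for Scd, and 0.759 and 0.788 for Mgst1. Awat1 was most like Crat (r = 0.747, and 0.735 without sham animal 6) and Atp12a (r = 0.746, and 0.734 without it). Fads2, with a probe close to background, was most like Rps25 (r = 0.889, and 0.756 without sham animal 6) and Atp6v1g1 (r = 0.879, and 0.754 without it). With the mean of the 9 genes, the closest were Gipc1 (r = 0.805), Cfi (r = 0.798), Tlcd4 (r = 0.790), Trem3 (r = 0.787), Echdc1 (r = 0.786), Hk2 (r = 0.770), Hspa4l (r = 0.746), Pla2r1 (r = 0.743), Bbs10 (r = 0.729) and Akr1c2 (r = 0.724). These correlations share the same 14 arrays and their signal levels.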

How the data were processed

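Spot intensity values were read from the deposited scanner files, which Agilent Feature Extraction 10.7.3.1 made per the file headers, with background already subtracted. The authors' deposited table of log2 values for 15168 probes served as an alternative. No source used here tells how it was normalized. Control spots (4259 of 62976) and outlier spots were dropped. Processed signals became log2 values relative to their array's 75th percentile, and replicate spots of a probe were averaged. Probes well above background on at least 6 arrays were kept (21014 of 30367), and 59.3% of probes received a symbol by accession through RefSeq genes of GRCr8. The brightest kept probe stood for its gene.

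Exposed and sham arrays were compared in limma 3.58.1 (R 4.3.3, lmFit and eBayes, two-sided, Benjamini-Hochberg adjustment over 18611 genes). The code was also run on simulated independent values with planted changes larger than the differences of the set genes. That run does not tell whether differences as small as these could be found. Correlations used 100000 permutations (Python 3.11.15, numpy 2.4.6). The number of arrays limits the precision. All 10 set genes are named, with the 3 genes of smallest p in each of the 2 related lists and the most alike genes by r. Members and lists were chosen with earlier results of these data known. A gene of the synthesis list is not reported here, and the counts of that list leave it out. Proteins were not analysed here.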

Additional observations from a re-analysis of the deposited data

Results flagged for a closer look

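In each group of 6 or 8 animals, the highest or lowest value was set against the others by Dixon's test, which by chance marks about 1 in 20 groups. Of 20 groups tested, 4 were marked, and 3 of these came from sham animal 6, the array of lowest signal. Soat1 was -2.31 (-2.3053) in sham animal 6, with the next lowest sham animal at -0.98. Awat2 was 2.44 (2.4404) in the same animal, with the next lowest sham animal at 3.19. Fads2 was -4.74 (-4.7437) there, the highest of the sham group, with the next at -5.65 and a probe close to background. Plin2 was 5.23 (5.2293) in exposed animal 2, with the next highest exposed animal at 4.85.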

How the results depend on the processing

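In every setting run, 0 genes passed the adjusted threshold between exposed and sham, with 294 to 2369 at an unadjusted p below 0.05 in limma (636 as reported, 2369 with array weights, 1549 without sham animal 6). Of 250 values of the 9 genes under alternatives, 238 had the reported sign, and the smallest adjusted p was 0.3963 in limma. Most of these settings share the same probes and most of the animals, and several repeat the reported value. The count of signs is therefore not one of independent checks. The sign turned within slide 4 for Scd (-0.2), Elovl3 (-0.0832), Awat2 (0.054) and Soat1 (0.315), within slide 3 for Mgst1 (-0.00938) and Awat1 (0.0542), and with array weights for Elovl3 (-0.005) and Dgat2 (0.0242). Leaving out 1 animal in turn gave -0.0309 to 0.122 for Elovl3 and -0.214 to 0.0263 for Soat1. It also moved other differences by over 1.5 times without turning their sign, at 0.0571 (without exposed animal 3) to 0.241 (without sham animal 6) for Scd, -0.133 (without sham animal 3) to -0.0197 (without exposed animal 5) for Awat1, -0.3 (without sham animal 6) to -0.102 (without exposed animal 3) for Awat2, -0.11 (without exposed animal 2) to -0.0173 (without sham animal 6) for Dgat2, -0.149 (without exposed animal 2) to -0.0246 (without sham animal 8) for Plin2, 0.0805 (without exposed animal 6) to 0.322 (without sham animal 6) for Fads2, and 0.048 (without sham animal 6) for Mgst1. Genes with a slide effect were 1 with no filter on dim probes and 0 to 2 when 1 animal was left out (2 without sham animal 2). Pairs of set genes past the threshold were 7 with quantile normalization, 0 without the 2 farthest animals and 0 without sham animal 6, and score relations were 5 with quantile normalization. The cause was not tested. Leaving out sham animal 6, the slide 3 correlations and the quantile values without it were chosen after seeing the data. Fads2 had no value in the authors' deposited table or with probes required on all 14 arrays. No paired analysis was possible because the labels give no replicate numbers that pair exposed with sham animals.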
